A study of Homo sapiens with 6 samples.

Results

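The homologous recombination, Fanconi anaemia and DNA damage checkpoint genes examined here were 39 of the 22152 genes in the deposited table. They were taken by gene name from a list arranged by function: 11 recombination genes, 5 genes of DNA end resection, 12 Fanconi genes, 2 mismatch repair genes, 2 genes of ATM signalling and 7 of ATR signalling. These genes and the other gene lists below were chosen with earlier results of these data known. The shares of genes passing are therefore descriptions and not a test of the lists. Polyadenylated RNA was sequenced from HaCaT cells, a spontaneously immortalised human keratinocyte line that carries mutated p53, 48 h after transfection with 1 nM of a synthetic miR-21-3p mimic (3 samples) or 1 nM of a negative control mimic (NC mimic, 3 samples). The samples are described as biological replicates. All groups share the one cell line, so the measurements describe that line only, and a polyA library does not measure the transfected mimic itself.

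Values are read counts per gene that the authors had divided by one size factor per sample, called normalised reads below. The 6 columns summed to between 25113679 and 25582680 normalised reads, and the reads recovered from them numbered 24402972 to 27982497 per sample. Of 12 listed keratinocyte markers 11 were measured, among which KRT5 had a median of 132500 normalised reads over the 6 samples, KRT14 35200 and TP63 7150. Of 7 fibroblast, 5 melanocyte and 6 leukocyte markers 1 each had values: COL1A1 with a median of 384, PMEL with 136.5 and CD14 with 84.35. The other listed fibroblast, melanocyte and leukocyte markers were not analysed here. COL1A1 was lower in each miR-21-3p mimic sample (372, 378 and 364) than in the NC mimic samples (560, 390 and 478). Its part in the results was not tested.

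Homologous recombination repairs a DNA double-strand break by copying an intact sister chromatid. The MRE11, RAD50 and NBN complex with CtIP and exonucleases trims the broken end, and RPA coats the single strand. BRCA1, PALB2 and BRCA2 act in the steps that lead to pairing with the intact strand. The Fanconi pathway removes links between the DNA strands: a core complex with the enzyme UBE2T attaches ubiquitin to FANCD2 and FANCI. The kinases ATM and ATR sense breaks and stalled forks and pass the signal to CHEK2 and CHEK1. Many of these genes are transcribed most in S and G2 phase, and in the epidermis dividing cells lie in the basal layer.

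Promoters were read for 34 of the 39 genes from RefSeq (GRCh38.p14), as 250 bases before and 50 bases after each gene's start. They were searched on both strands for the E2F letters TTTCCCGC, TTTGGCGC, TTTCGCGC and TTTGCCGC, for the CHR letters TTTGAA, which occur in promoters of many mitotic genes, and for CCAAT. No E2F word contains the CHR or CCAAT letters on either strand, and matches of each motif were counted separately. The E2F letters stood in 9 of the 34 genes, 26.5%, against 3.99% of all 27305 genes with a listed promoter and 3.31% of all promoters. CHR letters occurred in 4 of the 34 genes, 11.8%, against 18.2% of all genes and 15.2% of all promoters. CCAAT occurred in 19 of the 34, 55.9%, against 39.7% of all genes and 34.6% of all promoters. Among the 10 genes with a listed promoter that passed the expression test below, 2 held the E2F letters, and among the 24 that did not pass, 7 held them. These counts are of letters only and say nothing about the binding of a factor.

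The 4 promoters below are printed to show these letters; they were chosen after the expression values were seen. CLSPN (chr1:35769929-35770228, minus strand) and EXO1 (chr1:241847954-241848253, plus strand) are genes that passed the test and hold E2F letters, UBE2T (chr1:202341887-202342186, minus strand) passed and holds CHR letters, and TOPBP1 (chr3:133661892-133662191, minus strand) holds E2F letters but did not pass. Where a gene has several listed promoters, the one with the most E2F and CHR letters is shown. Capitals mark the matched letters on either strand.
CLSPN: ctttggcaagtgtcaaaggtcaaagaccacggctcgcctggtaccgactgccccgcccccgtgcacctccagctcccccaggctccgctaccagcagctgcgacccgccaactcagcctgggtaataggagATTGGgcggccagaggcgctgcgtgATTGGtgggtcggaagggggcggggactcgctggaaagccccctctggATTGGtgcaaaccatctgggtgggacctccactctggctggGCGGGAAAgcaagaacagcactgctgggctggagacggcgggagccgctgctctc
EXO1: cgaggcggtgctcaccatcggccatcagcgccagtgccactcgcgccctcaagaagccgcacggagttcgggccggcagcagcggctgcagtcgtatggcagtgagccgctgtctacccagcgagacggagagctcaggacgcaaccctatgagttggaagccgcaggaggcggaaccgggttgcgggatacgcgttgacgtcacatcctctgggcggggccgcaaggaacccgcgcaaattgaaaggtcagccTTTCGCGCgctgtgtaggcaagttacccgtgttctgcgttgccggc
UBE2T: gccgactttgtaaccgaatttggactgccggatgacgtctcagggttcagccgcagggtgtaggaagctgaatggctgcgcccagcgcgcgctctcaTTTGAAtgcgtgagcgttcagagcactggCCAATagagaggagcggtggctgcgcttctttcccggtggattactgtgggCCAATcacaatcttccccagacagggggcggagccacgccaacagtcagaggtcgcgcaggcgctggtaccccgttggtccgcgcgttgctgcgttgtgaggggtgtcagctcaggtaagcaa
TOPBP1: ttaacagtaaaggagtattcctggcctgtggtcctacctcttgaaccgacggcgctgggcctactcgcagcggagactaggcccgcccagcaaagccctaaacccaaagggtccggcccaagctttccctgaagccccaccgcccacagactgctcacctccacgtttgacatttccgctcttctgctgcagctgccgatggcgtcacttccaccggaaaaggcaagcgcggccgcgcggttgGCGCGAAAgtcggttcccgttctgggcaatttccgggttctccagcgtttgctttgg
In CLSPN the E2F letters begin 5 bases upstream of the gene's start, after CCAAT letters that begin 119, 94 and 46 bases upstream. In TOPBP1 they begin 7 bases upstream and in EXO1 4 bases downstream of the start. These starts are the RefSeq starts of the printed promoters, which can differ from the GENCODE 29 gene coordinates given below. The EXO1 gene in GENCODE 29 begins at chr1:241847967, near the upstream end of the printed promoter. In UBE2T the CHR letters begin 153 bases upstream, with CCAAT letters 124 and 73 bases upstream.

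Samples of a group differed among themselves, and 1 control sample is described before the results. By chi-square per gene, NC mimic replicates 1 and 2 were the furthest apart of the controls (9.31). The pairs with NC mimic replicate 3 were at 4.89 for replicate 1 and 5.33 for replicate 2. Among the miR-21-3p mimic samples, replicates 2 and 3 were the furthest apart (7.55). NC mimic replicate 2 lay nearer to the miR-21-3p mimic samples than the other NC mimic samples did: on the first principal component of all genes tested, which held 47% of the variance, it scored -1.74, against -21.2 and -13.4 for NC mimic replicates 1 and 3 and 6.81 to 17.9 for the miR-21-3p mimic samples. For 34 of the 39 genes, 87.2%, it had the highest value of the 3 NC mimic samples, against 36.1% of all genes tested. The mean of the 39 genes on the log2 scale, relative to the NC mimic mean, was -0.09, 0.11 and -0.02 in NC mimic replicates 1 to 3 and 0.15, 0.10 and 0.21 in the miR-21-3p mimic replicates. For the average of these genes NC mimic replicate 2 thus lay above miR-21-3p mimic replicate 2. Averages of cell cycle genes were likewise highest, among the controls, in NC mimic replicate 2, and these averages stayed below those of every miR-21-3p mimic sample. Gene by gene, NC mimic replicate 2 was the highest control for 22 of the 24 S phase genes and at or above at least 1 miR-21-3p mimic sample for 13, and for the 24 G2 and M phase genes these counts were 24 and 3. Over all genes tested the at-or-above count was not worked out, so the 13 and 3 are descriptions only. The 24 S phase genes averaged -0.12, 0.20 and -0.08 in the NC mimic samples and 0.34, 0.26 and 0.46 in the miR-21-3p mimic samples, and the 24 G2 and M phase genes averaged -0.15, 0.17 and -0.02 against 0.32, 0.29 and 0.42. Whether the cell cycle genes account for the values of the 39 genes was not tested. In RNA from whole cultures, a larger share of dividing cells and more RNA per cell cannot be told apart.

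**Figure D1:**
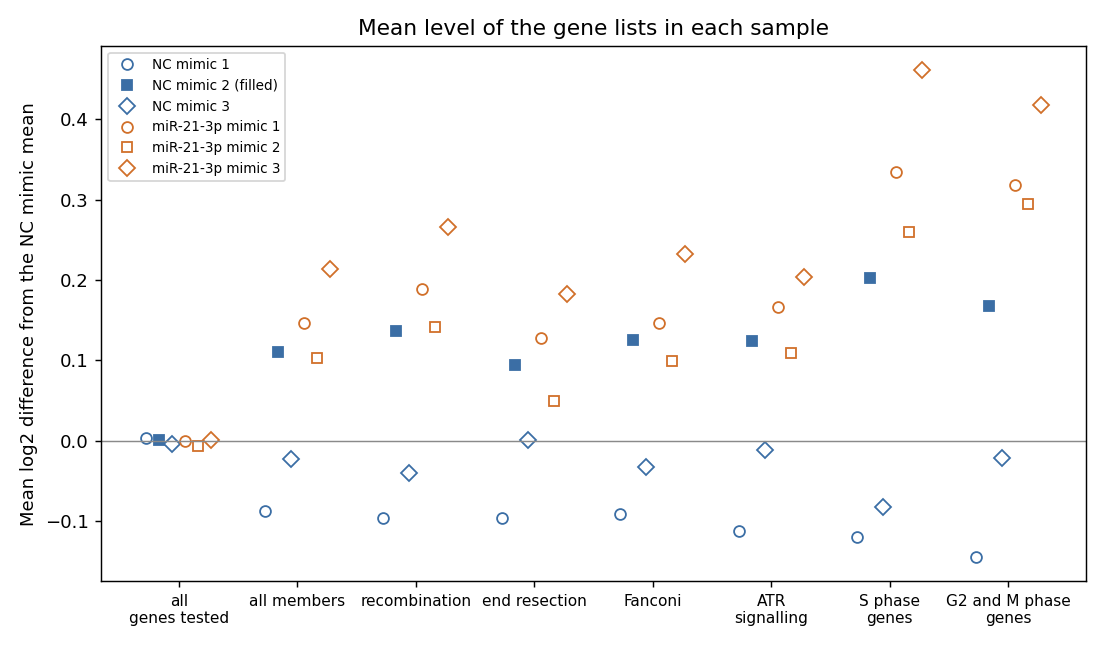
Mean log2 difference from the NC mimic mean (vertical axis) of gene lists in each of the 6 samples, with NC mimic replicate 2 as filled blue squares, the other NC mimic samples as open blue symbols and the miR-21-3p mimic samples as open orange symbols. NC mimic replicate 2 lies at 0.11 for all 39 genes and at 0.20 for the S phase genes, above the other NC mimic samples, while all genes tested stay near 0.

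The comparison asks how transcripts of these pathways differ between cells given the miR-21-3p mimic and cells given the NC mimic. Differences were tested with limma on log2(normalised reads + 1) over 14782 genes with a mean of at least 10 normalised reads, and a gene passed at an adjusted p under 0.05. All 39 genes were tested. With the miR-21-3p mimic 11 of the 39 were higher, against 6.15% of all genes tested, and 0 were lower, against 4.67%. By pathway, 4 of 11 recombination genes, 2 of 5 resection genes, 3 of 12 Fanconi genes and 2 of 7 ATR signalling genes were higher, and none of the 2 mismatch repair and 2 ATM signalling genes passed. At an unadjusted limma p under 0.05, 17 of the 39 were higher, against 15.3% of all genes tested, and 2 lower, against 13.2%. Both count tests on recovered reads called 11 higher and 0 lower, against 6.11% and 5.33% of all genes with edgeR and 6.14% and 5.02% with DESeq2, whose shares are over genes given an adjusted p. The median log2 fold change of the 39 genes was 0.16, a fold of 1.12, against 0.004 for all genes tested, and 33 of the 39 had a positive fold change. Without miR-21-3p mimic replicate 3 that median was 0.10 and without NC mimic replicate 2 it was 0.22. All 3 miR-21-3p mimic values lay above all 3 NC mimic values for 14 of the 39 genes, against 16.5% of all genes tested, and below them for 2, against 14.8%.

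The number of genes passing depended on single samples. Without NC mimic replicate 2, 17 of the 39 were higher, among them all 11 of the full comparison, against 11% of all genes tested. Leaving out NC mimic replicate 1 left 3 higher, against 2.14% of all genes, where edgeR called 2, against 2.22%, and DESeq2 5, against 3.33%. Without NC mimic replicate 3, limma called 0 of the 39, against 0.663% of all genes; at an unadjusted p 14 were higher, against 11.1%, and 2 lower, against 9.89%. There edgeR called 0, against 0.835%, and DESeq2 2, against 2.74%. Removal of miR-21-3p mimic replicate 1 left 2, against 0.995%, where edgeR called 3, against 1.2%, and DESeq2 6, against 3.13%. Removal of replicate 3 left 1, against 1.37%, where edgeR called 1, against 1.49%, and DESeq2 2, against 2.79%. Without miR-21-3p mimic replicate 2, 12 were higher, against 6.08%. The log2 fold changes of the 11 genes stayed positive in each of these fits, running from 0.13 for RPA1 to 0.37 for UBE2T without NC mimic replicate 1, and from 0.22 for RPA1 to 0.57 for CLSPN without NC mimic replicate 2. Over the 6 fits with a sample left out, RBBP8 passed in 5, RAD54L in 4, UBE2T in 3, RPA1 in 1 and each of the other 7 genes in 2.

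**Figure D2:**
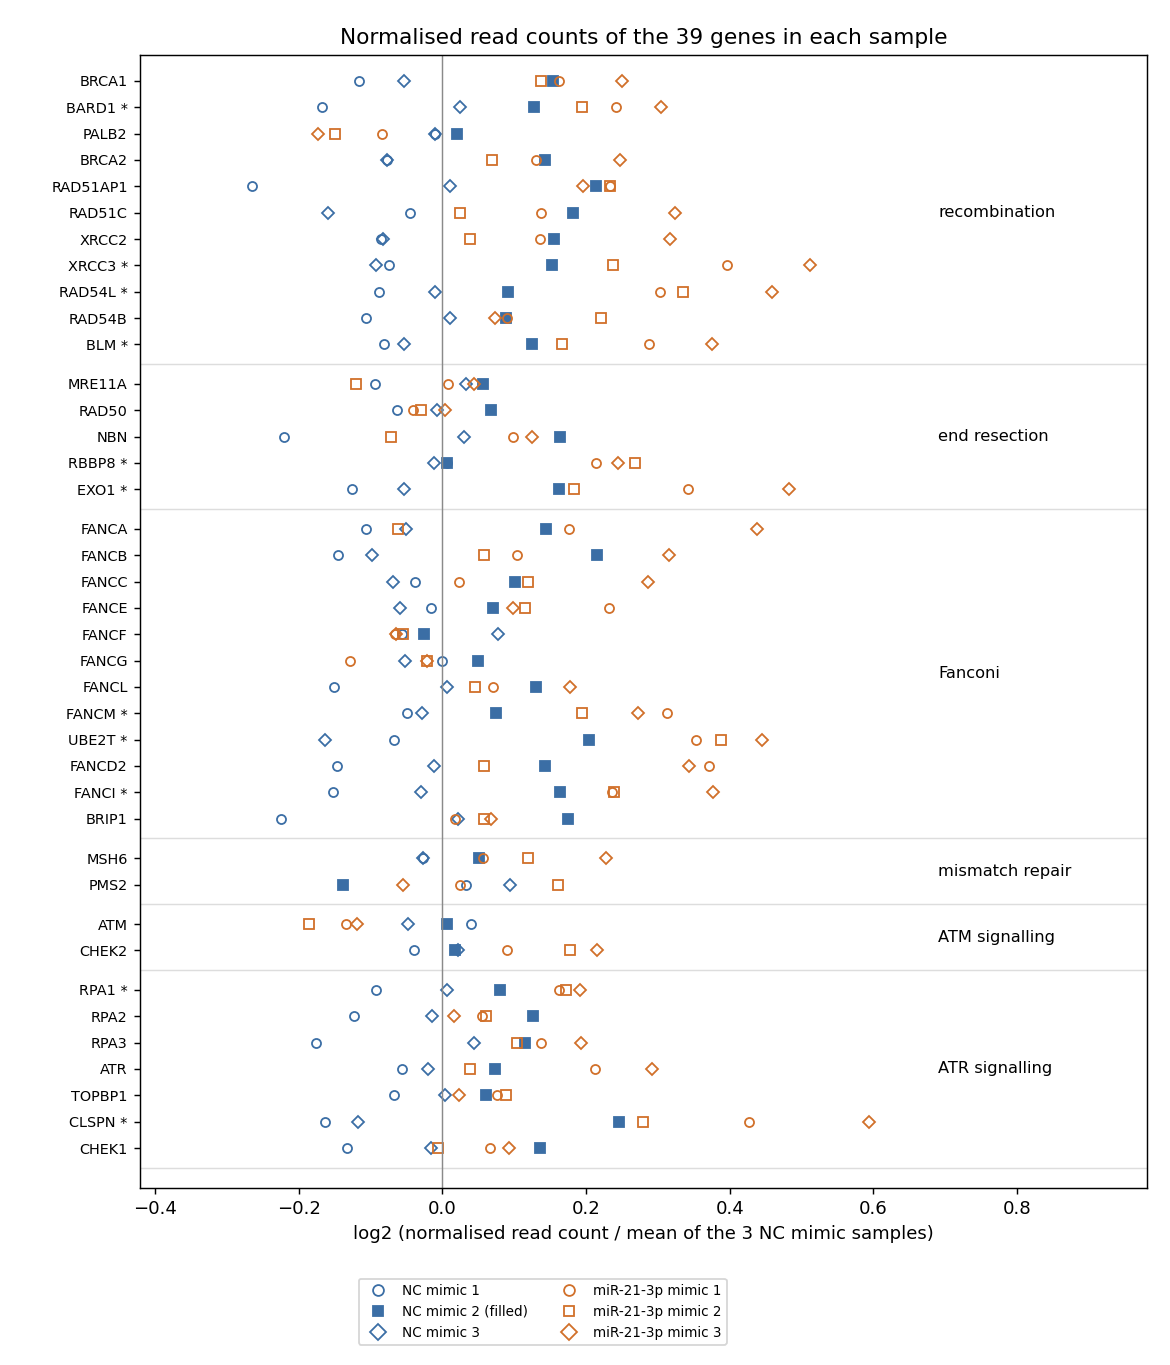
Normalised reads of each of the 39 genes in each of the 6 samples, as log2 of the ratio to the mean of the 3 NC mimic samples (horizontal axis), grouped by pathway. Blue symbols are NC mimic and orange symbols miR-21-3p mimic samples, a star after a name marks the 11 genes with an adjusted p under 0.05, and NC mimic replicate 2 (filled) is the highest NC mimic sample for 34 of the 39 genes.

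In what follows values are given in the order of replicates 1, 2 and 3, fold changes are log2 of miR-21-3p mimic over NC mimic with their standard error (SE), and adjusted p are from limma over all genes tested. Coordinates are GENCODE 29 genes on GRCh38, found by Ensembl identifier.

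Among the recombination genes, RAD54L, XRCC3, BLM and BARD1 were higher with the miR-21-3p mimic. RAD54L (ENSG00000085999, chr1:46247688-46278473), a motor protein that acts on DNA during strand pairing, had 470, 532 and 496 normalised reads in the NC mimic samples and 616, 630 and 686 in the miR-21-3p mimic samples. The groups did not overlap. Its log2 fold change was 0.37 (SE 0.07, adjusted p = 0.0116), and over its 14 alternatives it lay between 0.32 and 0.41. On the other strand, exons of LRRC41 overlap 25.1% of the RAD54L exon bases, so its counts are uncertain. XRCC3 (ENSG00000126215, chr14:103697609-103715504), which acts in strand pairing, had 536, 627 and 529 against 742, 665 and 804. The lowest miR-21-3p mimic sample stood above the highest NC mimic sample, and the log2 fold change was 0.39 (SE 0.09, adjusted p = 0.018). XRCC3 is uncertain, because 76.7% of its exon bases overlap exons of KLC1 on the other strand and whether the counting used strand is not given in the sources used here. BLM (ENSG00000197299, chr15:90717327-90816165), the helicase that dissolves crossed strands, had 700, 808 and 714 against 904, 831 and 961. The gap between NC mimic replicate 2 and miR-21-3p mimic replicate 2 was small, and the log2 fold change was 0.28 (SE 0.07, adjusted p = 0.0329).

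BARD1 (ENSG00000138376, chr2:214725646-214809711), the partner of BRCA1 in its ubiquitin ligase, had 1190, 1460 and 1360 normalised reads in the NC mimic samples and 1580, 1530 and 1650 in the miR-21-3p mimic samples. The groups did not overlap, and the log2 fold change was 0.25 (SE 0.07, adjusted p = 0.0389). BRCA1 itself had 2910, 3510 and 3040 against 3530, 3470 and 3750. Here NC mimic replicate 2 lay within the miR-21-3p mimic range, and BRCA1 did not pass, with a log2 fold change of 0.19 (SE 0.06, adjusted p = 0.0799). Without NC mimic replicate 2 its log2 fold change was 0.27 (adjusted p = 0.00263) and without NC mimic replicate 1 it was 0.13 (adjusted p = 0.246), the ends of the range over its 14 alternatives. BRCA2, which acts on single-stranded DNA after resection, had 1030, 1200 and 1030 against 1190, 1140 and 1290. The groups overlapped, and the log2 fold change was 0.15 (95% interval -0.0009 to 0.31, adjusted p = 0.178). Without NC mimic replicate 2 BRCA2 passed, at 0.23 (adjusted p = 0.024), and without miR-21-3p mimic replicate 3 the value was 0.10 (adjusted p = 0.46).

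PALB2 values lay in the other direction from those of BRCA1, BARD1 and BRCA2. This bridge between BRCA1 and BRCA2 had 1410, 1440 and 1410 normalised reads in the NC mimic samples and 1340, 1280 and 1260 in the miR-21-3p mimic samples. Every miR-21-3p mimic sample was below every NC mimic sample, but PALB2 did not pass, with a log2 fold change of -0.14 (SE 0.05, adjusted p = 0.0983). Over its 14 alternatives the log2 fold change stayed between -0.16 and -0.12. Per kilobase of exon, the ratio of PALB2 to BRCA1 was 0.938, 0.794 and 0.898 in the NC mimic samples and 0.735, 0.714 and 0.65 in the miR-21-3p mimic samples, with no overlap. That ratio was chosen after the values were seen, and it was not tested.

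The other recombination genes did not pass with all 6 samples. RAD51AP1, which acts in strand pairing, had a log2 fold change of 0.23 (adjusted p = 0.117), with 0.35 without NC mimic replicate 2 (adjusted p = 0.00358) and 0.11 without NC mimic replicate 1 (adjusted p = 0.344). RAD51C and XRCC2, which act in the same steps as XRCC3, each had a log2 fold change of 0.17, with adjusted p of 0.346 and 0.232. Without miR-21-3p mimic replicate 3 these were 0.088 and 0.091, and without NC mimic replicate 2 they were 0.26 and 0.25 (adjusted p = 0.115 and 0.0535), while without NC mimic replicate 3 RAD51C stood at 0.093. RAD54B, related to RAD54L, had one of 0.13 (adjusted p = 0.546) at 79.2 to 99.4 normalised reads, the lowest counts of the 39 genes, and 59.1% of its exon bases overlap those of FSBP on the same strand. The RAD54B value was 0.078 without NC mimic replicate 1 and 0.083 without miR-21-3p mimic replicate 2.

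In DNA end resection, RBBP8 and EXO1 were higher and the MRE11, RAD50 and NBN complex did not pass. RBBP8 (ENSG00000101773, chr18:22798261-23026488), which encodes CtIP and starts resection, had 1610, 1610 and 1590 normalised reads in the NC mimic samples and 1860, 1930 and 1900 in the miR-21-3p mimic samples. Replicates were close in both groups, NC mimic replicate 2 did not stand apart, and the log2 fold change was 0.24 (SE 0.05, adjusted p = 0.0101). RBBP8 had the smallest adjusted p of the 39 genes and passed in 13 of its 14 alternatives. EXO1 (ENSG00000174371, chr1:241847967-241895148), the exonuclease that lengthens the single strand, had 624, 762 and 656 against 863, 773 and 951. The highest control, NC mimic replicate 2, was only just below miR-21-3p mimic replicate 2, and the log2 fold change was 0.34 (SE 0.09, adjusted p = 0.0311). MRE11A and RAD50 each had a log2 fold change of -0.02, with 95% intervals of -0.16 to 0.11 and -0.12 to 0.08 and adjusted p of 0.856 and 0.804. RAD50 shares 79.7% of its exon bases with another annotated coding gene, AC116366.3, on the same strand. NBN had a log2 fold change of 0.06 (95% interval -0.13 to 0.25, adjusted p = 0.696). The ratio of EXO1 to MRE11A per kilobase was 1.06, 1.17 and 1.02 in the NC mimic samples and 1.37, 1.34 and 1.47 in the miR-21-3p mimic samples, a description chosen after the values were seen.

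Of the Fanconi genes, UBE2T, FANCI and FANCM were higher. UBE2T (ENSG00000077152, chr1:202331657-202341980), the ubiquitin-conjugating enzyme of the pathway, had 912, 1100 and 853 normalised reads in the NC mimic samples and 1220, 1250 and 1300 in the miR-21-3p mimic samples. The groups were apart, and the log2 fold change of 0.40 (SE 0.08, adjusted p = 0.0122) was the next largest after CLSPN of the 39 genes. FANCI (ENSG00000140525, chr15:89243949-89317261), which is ubiquitinated with FANCD2, had 3280, 4080 and 3570 against 4290, 4300 and 4730. The nearest control was NC mimic replicate 2, and the log2 fold change was 0.29 (SE 0.07, adjusted p = 0.0245). FANCM (ENSG00000187790, chr14:45135940-45200890), the translocase that anchors the core complex at a link, had 592, 645 and 601 against 761, 701 and 740. Its groups did not overlap either, and the log2 fold change was 0.26 (SE 0.06, adjusted p = 0.0258).

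FANCD2, the partner of FANCI, had 429, 524 and 471 normalised reads in the NC mimic samples and 614, 494 and 602 in the miR-21-3p mimic samples. The groups overlapped through NC mimic replicate 2 and miR-21-3p mimic replicate 2, and FANCD2 did not pass (log2 fold change 0.26, SE 0.10, adjusted p = 0.0991). It passed without NC mimic replicate 2, at 0.34 (adjusted p = 0.0229), and without miR-21-3p mimic replicate 2, at 0.36 (adjusted p = 0.0325), while without NC mimic replicate 1 the value was 0.19 and without miR-21-3p mimic replicate 1 the adjusted p was 0.311. FANCI and FANCD2 had fold changes of similar size, 0.29 and 0.26 on the log2 scale, and differed in the spread of their samples. FANCA, a scaffold of the core complex, had 600, 714 and 624 against 730, 619 and 875. The miR-21-3p mimic samples spread widely and overlapped the controls, and the log2 fold change was 0.19 (95% interval -0.05 to 0.42, adjusted p = 0.277). It was 0.061 without miR-21-3p mimic replicate 3 (adjusted p = 0.752) and 0.31 without miR-21-3p mimic replicate 2 (adjusted p = 0.0632). On the other strand, exons of ZNF276 overlap 23.6% of the FANCA exon bases.

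None of the other core complex genes passed. FANCB, FANCC and FANCE had log2 fold changes of 0.17, 0.15 and 0.15 with adjusted p of 0.316, 0.195 and 0.186, and FANCL, the ubiquitin ligase subunit, had one of 0.10 (adjusted p = 0.371). Single samples moved these values: FANCB was 0.28 without NC mimic replicate 2 (adjusted p = 0.0517), 0.10 without NC mimic replicate 1 and 0.0895 without miR-21-3p mimic replicate 3. Removal of the last sample also brought FANCC to 0.073 and FANCL to 0.062, and FANCL was 0.029 without NC mimic replicate 1 and 0.17 without NC mimic replicate 2. FANCF and FANCG both had a log2 fold change of -0.06, with adjusted p of 0.548 and 0.53. FANCF was -0.021 without NC mimic replicate 3, and FANCG was -0.030 without NC mimic replicate 2 and -0.020 without miR-21-3p mimic replicate 1. On the other strand, exons of VRK2 overlap 18.7% of the FANCL exon bases and exons of GAS2 11.3% of those of FANCF. The helicase BRIP1, which binds BRCA1, had one of 0.06 (95% interval -0.13 to 0.24, adjusted p = 0.697).

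Neither mismatch repair gene passed. MSH6, which recognises mispaired bases, had 2340, 2470 and 2340 normalised reads in the NC mimic samples and 2480, 2590 and 2790 in the miR-21-3p mimic samples. The groups did not overlap, by a margin of the last digit given, and the log2 fold change was 0.14 (SE 0.05, adjusted p = 0.115), with 0.089 without miR-21-3p mimic replicate 3. PMS2, an endonuclease of the pathway, had 653, 580 and 681 against 649, 713 and 614. These groups overlapped, and the log2 fold change was 0.05 (95% interval -0.12 to 0.22, adjusted p = 0.733). PMS2 is uncertain, because the annotation names 11 pseudogenes after it that can share its reads. MSH6 shares 16.2% of its exon bases with FBXO11 on the other strand.

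In ATM signalling the kinase and its target lay on opposite sides of 0 and neither passed. ATM had 2210, 2160 and 2080 normalised reads in the NC mimic samples and 1960, 1890 and 1980 in the miR-21-3p mimic samples. Every miR-21-3p mimic sample was lower than every NC mimic sample, with a log2 fold change of -0.15 (SE 0.05, adjusted p = 0.0669). ATM had the smallest adjusted p of those of the 39 genes that did not pass, and over its 14 alternatives this p lay between 0.0532 and 0.168. CHEK2, the kinase that ATM activates, had 595, 619 and 621 against 651, 692 and 710. All miR-21-3p mimic values were above the controls, and the log2 fold change was 0.16 (SE 0.06, adjusted p = 0.115). For CHEK2 the annotation names 4 pseudogenes, for RPA2 3 and for RBBP8, FANCD2, RAD51AP1 and MRE11A 1 each, so the counts of these genes are uncertain too. Overlap with exons on the other strand was 6.7% for CHEK2, 5.9% for FANCI and at most 3.65% for the members not named above as overlapped.

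In ATR signalling, CLSPN and RPA1 were higher. CLSPN (ENSG00000092853, chr1:35720218-35769967) encodes claspin, the mediator through which ATR activates CHEK1. It had 546, 725 and 564 normalised reads in the NC mimic samples and 822, 742 and 923 in the miR-21-3p mimic samples. NC mimic replicate 2 lay close to miR-21-3p mimic replicate 2, and the log2 fold change of 0.44 (SE 0.11, adjusted p = 0.0222) was the largest of the 39 genes. It was 0.57 without that control and 0.36 without miR-21-3p mimic replicate 3, where CLSPN did not pass (adjusted p = 0.0947, in a range of 0.000383 to 0.105 over its alternatives). CHEK1, the kinase downstream, had 1420, 1710 and 1540 against 1630, 1550 and 1660. Its groups overlapped, with the highest value in NC mimic replicate 2, and the log2 fold change was 0.06 (95% interval -0.09 to 0.20, adjusted p = 0.619). Per kilobase the ratio of CLSPN to CHEK1 was 0.466, 0.514 and 0.444 in the NC mimic samples and 0.611, 0.58 and 0.674 in the miR-21-3p mimic samples, chosen after the values were seen and not tested.

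RPA1 (ENSG00000132383, chr17:1829702-1900082), the large subunit of the single-strand binding protein, had 3680, 4150 and 3940 normalised reads in the NC mimic samples and 4390, 4420 and 4480 in the miR-21-3p mimic samples. The miR-21-3p mimic samples were close together and above all controls, and the log2 fold change was 0.18 (SE 0.05, adjusted p = 0.0394). RPA2, the middle subunit, had 730, 868 and 787 against 826, 829 and 804. Here the controls spread around the miR-21-3p mimic samples, and the log2 fold change was 0.05 (95% interval -0.10 to 0.20, adjusted p = 0.685). RPA3, the small subunit, had 1030, 1260 and 1200 against 1280, 1250 and 1330. Again NC mimic replicate 2 overlapped the miR-21-3p mimic samples, and the log2 fold change was 0.15 (SE 0.07, adjusted p = 0.185). Which subunits passed rested on single samples: RPA3 passed without NC mimic replicate 2, at 0.21 (adjusted p = 0.0436), and stood at 0.065 without NC mimic replicate 1 (adjusted p = 0.531), and RPA1 passed in 1 of the 6 fits with a sample left out. The difference between the subunits was not tested.

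ATR itself had 1170, 1280 and 1200 normalised reads in the NC mimic samples and 1410, 1250 and 1490 in the miR-21-3p mimic samples. The groups overlapped through replicate 2 of each, and the log2 fold change was 0.18 (SE 0.07, adjusted p = 0.0991). ATR passed without NC mimic replicate 2, at 0.22 (adjusted p = 0.0393), and without miR-21-3p mimic replicate 2, at 0.25 (adjusted p = 0.0312), while without miR-21-3p mimic replicate 3 the value was 0.13 (adjusted p = 0.321). ATM and ATR fold changes had opposite signs, and the ratio of ATM to ATR per kilobase was 0.985, 0.88 and 0.904 in the NC mimic samples and 0.725, 0.788 and 0.693 in the miR-21-3p mimic samples. That ratio was chosen after the values were seen, and it was not tested. TOPBP1, the activator of ATR whose promoter is printed above, had a log2 fold change of 0.06 (95% interval -0.04 to 0.16, adjusted p = 0.397), and 0.031 without NC mimic replicate 1.

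**Figure D3:**
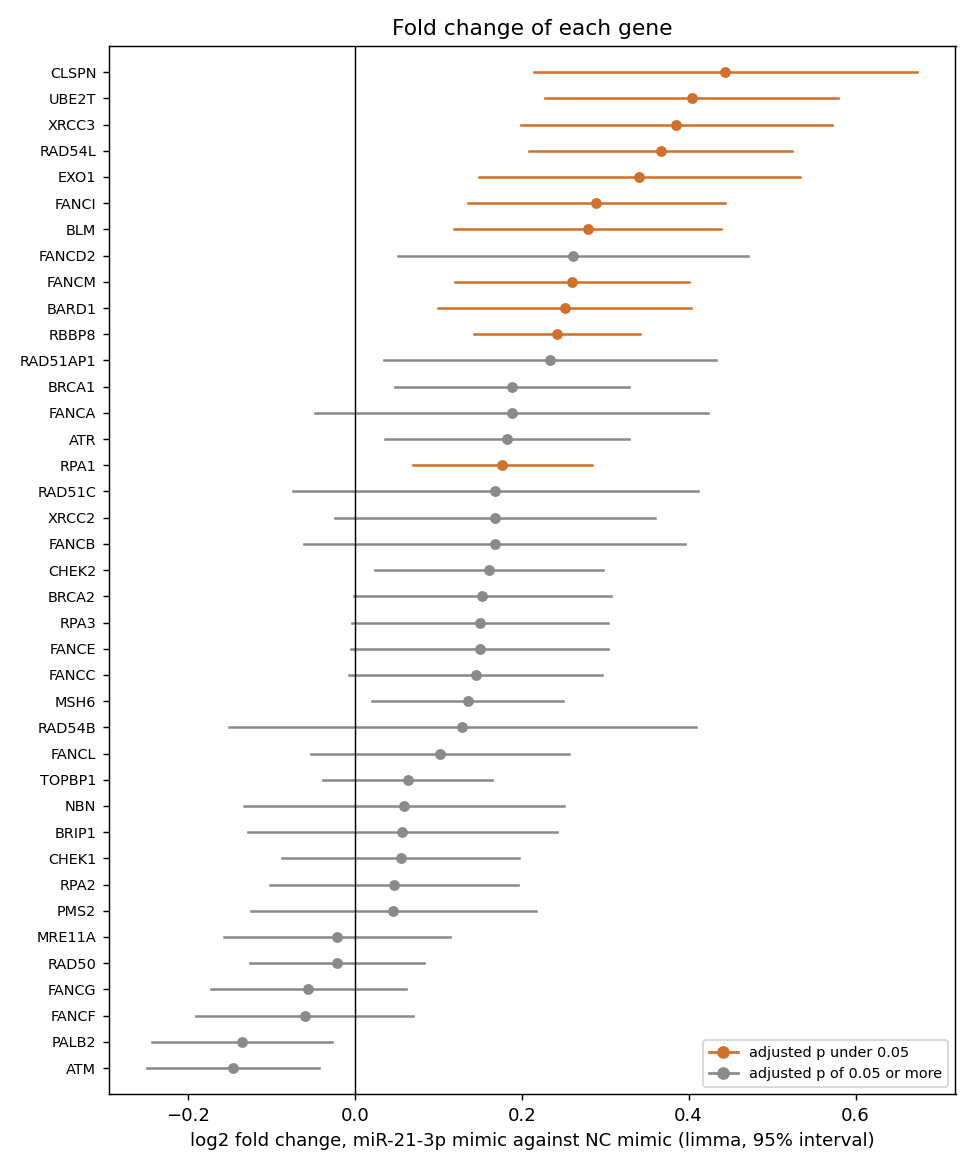
Log2 fold change of each of the 39 genes, miR-21-3p mimic against NC mimic (horizontal axis), with its 95% interval from limma. The 11 genes with an adjusted p under 0.05 (orange) run from RPA1 at 0.18 to CLSPN at 0.44, and ATM at -0.15 and PALB2 at -0.14 have the lowest values.

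Levels were compared between genes per kilobase of exon, over all GENCODE 29 exons of each gene, in the NC mimic samples. RPA1 was the most abundant at 714 ± 42.9 normalised reads per kilobase (SD, n = 3), followed by TOPBP1 at 605 ± 26.7 and UBE2T at 578 ± 78.1, and TOPBP1 and UBE2T did not differ by more than their spread. The lowest values were 16.1 ± 1.09 for RAD54B, 37.9 ± 4.64 for RAD51C and 56.7 ± 5.68 for FANCD2. The place of RAD54B is uncertain, since the length used includes the bases it shares with FSBP, whose reads may not have been counted. FANCI and FANCD2 form one complex but stood far apart, with a ratio of 8.25, 8.40 and 8.18 in the NC mimic samples and 7.54, 9.39 and 8.48 in the miR-21-3p mimic samples. That ratio overlapped between groups. The level of FANCD2, and with it this ratio, is uncertain, because the annotation names 1 pseudogene after FANCD2 that can share its reads. The lengths count exons of every annotated transcript, so a gene with long minor transcripts appears less abundant.

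Further genes of the same pathways were taken from lists arranged by function, and their counts stand against the 6.15% higher and 4.67% lower of all genes tested. Of 27 other recombination genes, 3 (11.1%) were higher and 1 lower, with a median log2 fold change of 0.12, and DESeq2 called 2 of the 27. RMI2, PSMC3IP and EME1 were higher, at log2 fold changes of 0.28, 0.30 and 0.28. RMI2, a partner of BLM, had 1100, 1370 and 1210 normalised reads in the NC mimic samples and 1400, 1480 and 1590 in the miR-21-3p mimic samples (adjusted p = 0.0352). INTS3, a subunit of the integrator and of a single-strand binding complex, was lower, with 2800, 2640 and 2610 against 2360, 2320 and 2420 (log2 fold change -0.18, adjusted p = 0.031). Of 11 other Fanconi genes 1 (9.09%, near the share of all genes) was higher, the ubiquitin ligase RFWD3 (log2 fold change 0.25, adjusted p = 0.0283), and of 4 other mismatch repair genes 1 was higher, the sliding clamp PCNA (0.29, adjusted p = 0.0183).

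Of 28 other checkpoint genes 5 (17.9%) were higher, against 6.15% of all genes tested, with a median log2 fold change of 0.09. Those with the smallest adjusted p were PKMYT1, a kinase that restrains CDK1 (log2 fold change 0.34, adjusted p = 0.00884), the histone H2AFX that is marked at breaks (0.26, adjusted p = 0.0184), the phosphatase CDC25B (0.17, adjusted p = 0.0322) and DBF4, which activates the kinase CDC7 (0.27, adjusted p = 0.0353). In the cell cycle lists 13 of 24 S phase genes and 22 of 24 G2 and M phase genes were higher, with median log2 fold changes of 0.32 and 0.37, both above the 0.16 of the 39 genes. For these lists edgeR called 10 and 20 and DESeq2 17 and 23. RRM2, a subunit of ribonucleotide reductase, had 1340, 1980 and 1550 normalised reads against 2650, 2620 and 3060 (log2 fold change 0.79, adjusted p = 0.00327), larger than any of the 39 genes. PCNA is in both the mismatch repair and the S phase list.

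**Figure D4:**
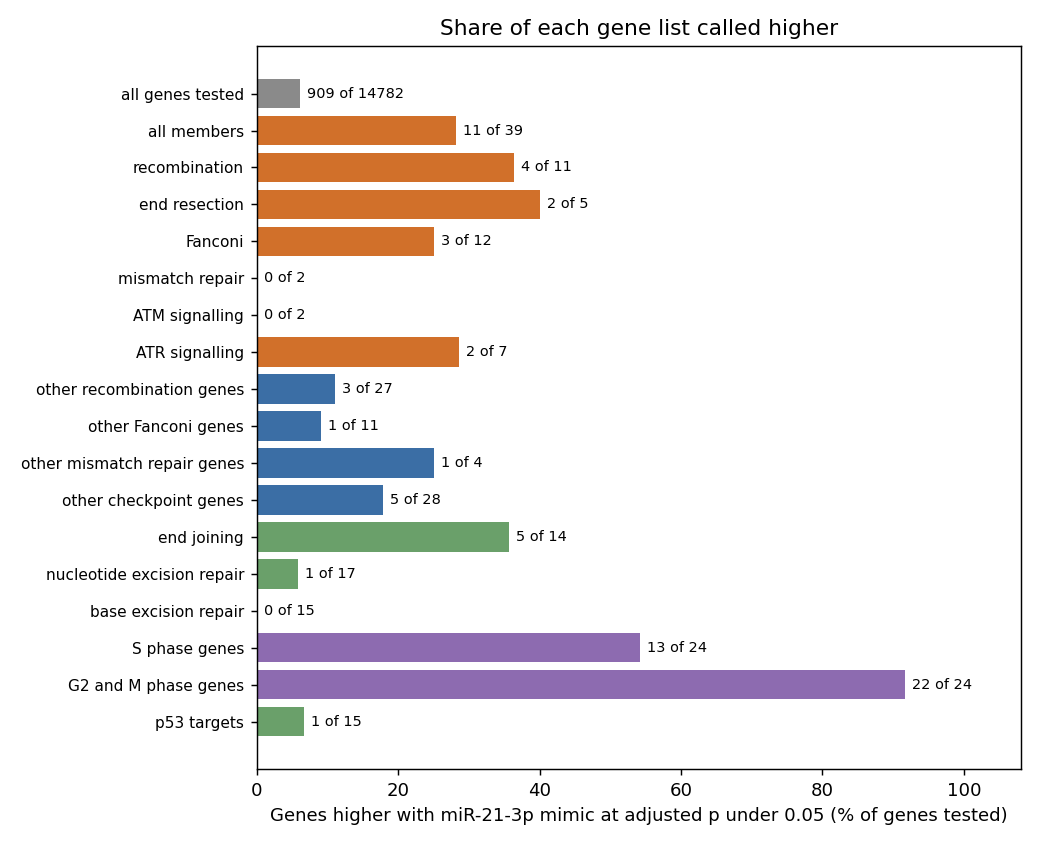
Share of each gene list that was higher with the miR-21-3p mimic at an adjusted p under 0.05 (horizontal axis, % of genes tested), with counts beside the bars. All members, the 39 genes, stand at 28.2% and all genes tested at 6.15%, while the G2 and M phase genes reach 91.7%. The lists were chosen with earlier results of these data known.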

How the data were processed

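RNA was measured in 3 miR-21-3p mimic and 3 NC mimic samples. Per the labels, the processing used bcl2fastq 2.18.12, cutadapt 1.15, TopHat2 2.1.1, featureCounts (Subread 1.5.2) and DESeq2; genome build and annotation are not given in the sources used here. The authors deposited a normalised signal, read counts divided by a size factor, rounded to 3 significant digits. Raw counts had been assumed, so limma 3.58.1 (R 4.3.3, trend) on log2(value + 1), with Benjamini-Hochberg adjustment, was used in place of edgeR. A filter kept genes with a mean of at least 10. Of values under 100, 100% came out as whole reads within 0.1 in each sample. On these recovered reads, approximate at high counts, edgeR 4.0.16 called 1693 genes and DESeq2 1.42.0 called 1590, against 1600 by limma; the edgeR test with TMM factors was chosen after seeing the data. Scripts were tested on simulated data. Replicates of a group differed by more than sampling noise (chi-square per gene 3.85 to 9.31). Values in every sample are given for genes that passed, a fixed set of central genes and the 3 nearest to passing; the rest by fold change, and from other lists up to 4 genes per direction. Some genes of the other lists are not reported here. The members and lists were chosen with earlier results of these data known. Other filters, pseudocounts, a replicate block and leaving out each sample were tried.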

Additional observations from a re-analysis of the deposited data

How the results depend on the processing

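The 11 genes higher in the full comparison were the same 11 with edgeR (TMM, added after seeing the data, or RLE), with DESeq2, without a filter, with a mean of at least 50 and with pseudocounts of 0.5 and 5, and none of these settings changed the side of the threshold for any of the 39 genes. Leaving out 1 sample in turn gave between 179 and 2963 genes called over the whole table, 98 to 1629 higher and 81 to 1334 lower, against 1600, 909 and 691. Of the 39 genes 0 to 17 were called, all of them higher, and 8 to 87 genes of the other lists against 53. Each of these fits has 1 sample fewer, yet the highest counts came without NC mimic replicate 2, and the cause was not tested.

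Some small fold changes changed sign when 1 sample was left out, and the cause was not tested. Over the 6 fits with a sample left out, the log2 fold change ran from -0.067 to 0.028 for MRE11A, -0.052 to 0.013 for RAD50, -0.046 to 0.15 for NBN, -0.050 to 0.15 for BRIP1, -0.021 to 0.096 for PMS2, -0.012 to 0.11 for RPA2 and -0.0090 to 0.12 for CHEK1. None of these genes passed in any setting.

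The replicate numbers did not pair the samples: the deviations of same-numbered samples from their group means correlated at -0.006, -0.20 and -0.17. With the replicate block 1202 genes were called, 685 higher and 517 lower, and 9 of the 39 genes, all higher. In that limma fit FANCM and RPA1 no longer passed (adjusted p = 0.0539 and 0.0741). Their log2 fold changes were unchanged at 0.26 and 0.18.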

Other observations

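Other repair pathways are given beside the 6.15% of all genes tested that were higher and the 4.67% that were lower. Of 14 end joining genes 5 (35.7%) were higher with the miR-21-3p mimic, with a median log2 fold change of 0.18. The smallest adjusted p belonged to C9orf142, which encodes the end joining factor PAXX and had 568, 645 and 538 normalised reads in the NC mimic samples and 757, 768 and 820 in the miR-21-3p mimic samples (log2 fold change 0.42, adjusted p = 0.00833). PRKDC, the catalytic subunit of DNA-dependent protein kinase, had 6020, 7300 and 6370 against 8190, 7520 and 8680 (0.31, adjusted p = 0.0184), and LIG3 and PARP1 had log2 fold changes of 0.33 and 0.26. Of 17 nucleotide excision repair genes 1 (5.88%, about the share of all genes) was higher, GTF2H5 (0.28, adjusted p = 0.049), and edgeR and DESeq2 called 0 of them. For 15 base excision repair genes limma called 0, edgeR 0 and DESeq2 1. At an unadjusted limma p under 0.05, 3 of the 15 were higher and 2 lower, against 15.3% and 13.2% of all genes tested.

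Of 15 p53 target genes 1 (6.67%) was higher and 1 lower, about the shares of all genes tested. GADD45A, a stress gene, had 990, 1070 and 1030 normalised reads in the NC mimic samples and 1440, 1510 and 1370 in the miR-21-3p mimic samples (log2 fold change 0.48, adjusted p = 0.00154). ZMAT3 had 1090, 1040 and 1090 against 885, 909 and 834 (-0.29, adjusted p = 0.011). In neither gene did NC mimic replicate 2 lie among the miR-21-3p mimic samples. Of the 11 keratinocyte markers 1 (9.09%) was higher and 1 lower, against 6.15% and 4.67% of all genes tested, with a median log2 fold change of -0.03. KRT6A was higher, with 16800, 17100 and 16500 against 21500, 20700 and 21700 (0.34, adjusted p = 0.00203). ITGB4 was lower, with 21400, 17700 and 19900 against 15900, 17900 and 15400 (-0.26, adjusted p = 0.0381). The ITGB4 groups overlapped through replicate 2 of each. Among the markers that did not pass, all miR-21-3p mimic values lay below the controls for TP63 (-0.13). They lay above the controls for SFN (0.15) and DSP (0.07).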
